A study of Mus musculus with 2 samples.

Results

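Of the 38355 genes in the authors' deposited comparison of group B with group A in mouse cardiac ventricles, 7 transcripts with provisional names, of the kind given before a function is known, are described here. They are 3632451O06Rik, 9330158H04Rik, Gm16316, AI593442, Gm15626, Gm8420 and Gm14094, and they were picked by name for their large differences in that table. The deposited fold change and adjusted p therefore chose them. Every difference between the groups below is a description of these 7, with no test, and it supports nothing beyond itself.

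The labels name 1 vTBX5KO and 1 Flox sample. Both are cardiac ventricles of C57BL/6 mice aged 16 weeks. The vTBX5KO sample carried Myh6-MerCreMer together with Tbx5LDN/LDN, and the Flox sample carried Tbx5LDN/LDN alone, so both hold the same Tbx5 allele. The Cre recombinase is driven by the Myh6 promoter, which is active in cardiomyocytes. The protocol is the same for both samples, in which TX at a daily 30 mg/kg was given over 3 days to mice of 12 weeks, and tissue was taken 4 weeks later. No label or header says which genotype is group B and which is group A, and it was not inferred, so no direction below can be read as an effect of losing Tbx5. Tbx5 itself had a log2 fold change of 0.92 (group B over group A) with an adjusted p of 0.0575 at a mean of 513 normalised counts by the authors' deposited table.

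Names of the form Gm followed by digits, or ending in Rik, were assigned to gene models found by sequencing full-length cDNA or by annotation of the genome. Such models include long noncoding RNAs, antisense RNAs that are read from the strand opposite a coding gene, and processed pseudogenes. A processed pseudogene is a DNA copy of a spliced messenger RNA, without introns, inserted elsewhere in the genome. Genes of ribosomal proteins, which are transcribed at high levels in every cell, have left many such copies in mammalian genomes, and most copies lack a promoter of their own.

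The deposited table holds a mean over all libraries, and the whole reads of each library were recovered from it. There were 6 libraries, 3 of each letter, named here from the deepest to the shallowest. Size factors were 1.56, 1.35 and 0.891 in B1, B2 and B3, and 1.16, 0.796 and 0.607 in A1, A2 and A3. Below a mean of 100, exactly 1 set of whole reads fitted the printed mean for 99.9% of 13403 genes, among them 5 of the 7 transcripts. The labels do not say whether libraries with the same letter are separate mice, so the spread may be technical. In ventricle tissue, fewer cells of a type and less RNA per cell cannot be told apart.

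The differences of the 7 transcripts between group B and group A went both ways. By the authors' deposited table, an adjusted p under 0.05 was reached by 6 of the 7, against 3.98% of the 13230 genes with an adjusted p. Gm8420, AI593442 and Gm15626 were higher in group B, where 1.5% of all genes were called. 3632451O06Rik, 9330158H04Rik and Gm16316 were lower in group B, where 2.49% were called. The seventh, Gm14094, had a mean of 11.7 normalised counts and no adjusted p in that table, whose lowest mean with an adjusted p was 16.0. Since these values chose the transcripts, nothing is read from the count.

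**Figure D1:**
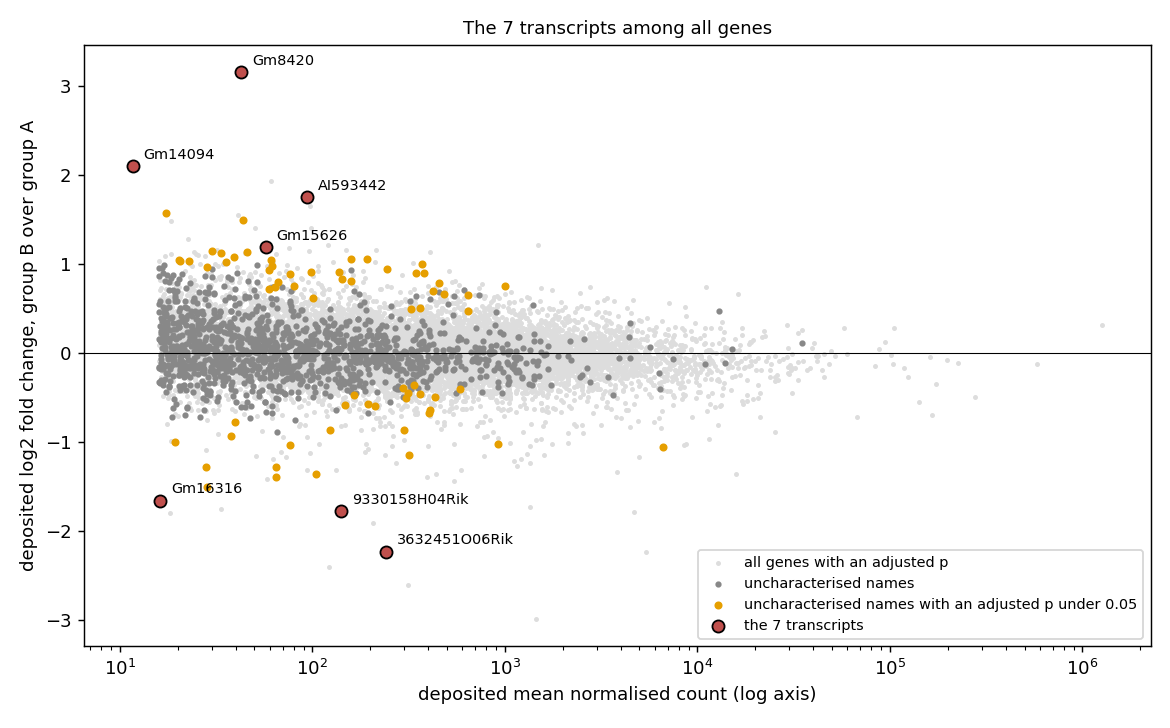
Deposited log2 fold change of group B over group A (y axis) against the deposited mean normalised count (x axis, log scale), with 1 point per gene. Gm8420 lies highest of all genes at 3.15, and the 7 transcripts have means between 11.7 and 240.4 normalised counts.

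Gm8420 and Gm14094 are processed pseudogenes of the same parent, Rpl15, which encodes ribosomal protein L15 of the large subunit. Gm8420 (ENSMUSG00000072324) lies on chromosome 1, 51940650 to 51941261, and Gm14094 (ENSMUSG00000083689) on chromosome 2, 133199611 to 133200220, both as a single exon on GRCm38 coordinates. GENCODE M21 places Gm8420 on the minus strand and Gm14094 on the plus strand. Rpl15 itself is on chromosome 14. The Gm8420 transcript of 598 bases matched Rpl15 at 96.6% identity over 596 bases, and the Gm14094 transcript of 610 bases matched it at 94.6% identity over 615 alignment columns. Gm10020 and Rpl15-ps3, 2 other copies, matched Gm8420 at the same 96.6%, and Gm10224 and Rpl15-ps3 matched Gm14094 at the same 94.6%.

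The stretch of 120 bases in which the copies differ most from their parent is shown here, since it is by such differences that a read can be placed on a copy and not on Rpl15. It covers bases 295 to 414 of the Rpl15 transcript, inside the coding sequence that runs from base 218 to base 829. In the genome it is chr1:51941065-51941184 on the minus strand for Gm8420 and chr2:133199688-133199807 on the plus strand for Gm14094 (GRCm38, GENCODE M21). Capitals mark, in each copy, the bases that differ from Rpl15 and, in Rpl15, the positions at which either copy differs.
Rpl15: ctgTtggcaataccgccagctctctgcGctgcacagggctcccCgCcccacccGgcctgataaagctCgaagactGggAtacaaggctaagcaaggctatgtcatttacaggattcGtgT
Gm8420: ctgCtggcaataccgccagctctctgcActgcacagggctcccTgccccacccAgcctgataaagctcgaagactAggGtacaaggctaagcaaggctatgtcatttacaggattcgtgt
Gm14094: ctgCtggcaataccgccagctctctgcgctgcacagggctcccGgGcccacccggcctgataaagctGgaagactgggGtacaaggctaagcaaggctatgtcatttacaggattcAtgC
In this window Gm8420 differs from Rpl15 at 6 positions and Gm14094 at 7, and at 2 of them both copies carry the same base. Over the 592 positions aligned in all 3 transcripts, Gm8420 differed from Rpl15 at 20 and Gm14094 at 27, with the same base in both at 6.

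Gm8420 had 113, 159 and 56 reads in B1, B2 and B3, against 2, 1 and 0 reads in A1, A2 and A3. After division by the size factors these were 72.2, 117 and 62.9 normalised reads in group B and 1.73, 1.26 and 0 in group A. All 3 libraries of group B were high, and the libraries of group A were at or next to 0, so the groups do not overlap. The mean was 84.2 ± 29.2 in group B and 0.996 ± 0.894 in group A (SD, n = 3 each). Over the summed reads, 328 in group B and 3 in group A, the ratio was 73.5 with an exact 95% interval of 24.9 to 358, which covers counting error only. By the authors' deposited table the log2 fold change was 3.15, the largest of 23470 genes with a value, with an adjusted p of 4.73e-20. That deposited value is shrunken towards 0 and corresponds to 8.91-fold.

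Gm14094 showed the same split at a lower level. Its reads were 36, 39 and 15 in B1, B2 and B3, against 0, 1 and 0 in A1, A2 and A3. These are 23.0, 28.8 and 16.8 normalised reads in group B, while the single read of group A gives 1.26 in A2. A library with 0 reads still allows 2.60 normalised reads in A1 and 4.94 in A3, taking 3 reads as the limit. The ratio of summed reads, 90 in group B and 1 in group A, was 60.5 with an exact 95% interval of 10.6 to 2414 for counting error only. The authors' deposited table gave a log2 fold change of 2.10, the second highest of all genes.

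The 2 copies kept a similar ratio to each other in group B, where Gm8420 had 3.14, 4.08 and 3.73 times the normalised reads of Gm14094 in B1, B2 and B3. They lie on different chromosomes. Both stood apart from the other copies of Rpl15. Besides them, 19 copies in the table had at least 80% of their length aligned to Rpl15, and 15 of these had reads. The 15 together held 12.8, 11.1 and 16.8 normalised reads in B1, B2 and B3, and 9.52, 23.9 and 18.1 in A1, A2 and A3, so these sums overlap between the groups. Gm8420 and Gm14094 together held 95.2, 146 and 79.7 normalised reads in group B, and 1.73, 2.51 and 0 in group A. Gm10020, the highest of the 15 with 99.7% identity to Rpl15, had 6, 5 and 6 reads in group B against 3, 6 and 1 in group A. The deposited log2 fold changes of the 15 ran from -0.44 to 0.21 in the authors' table, and none of them had an adjusted p. Rpl15 itself had a mean of 683 normalised counts, a log2 fold change of 0.32 and no adjusted p by the authors' deposited table. Its mean lies above 16.0, the lowest with an adjusted p, and why it has none is not stated.

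**Figure D2:**
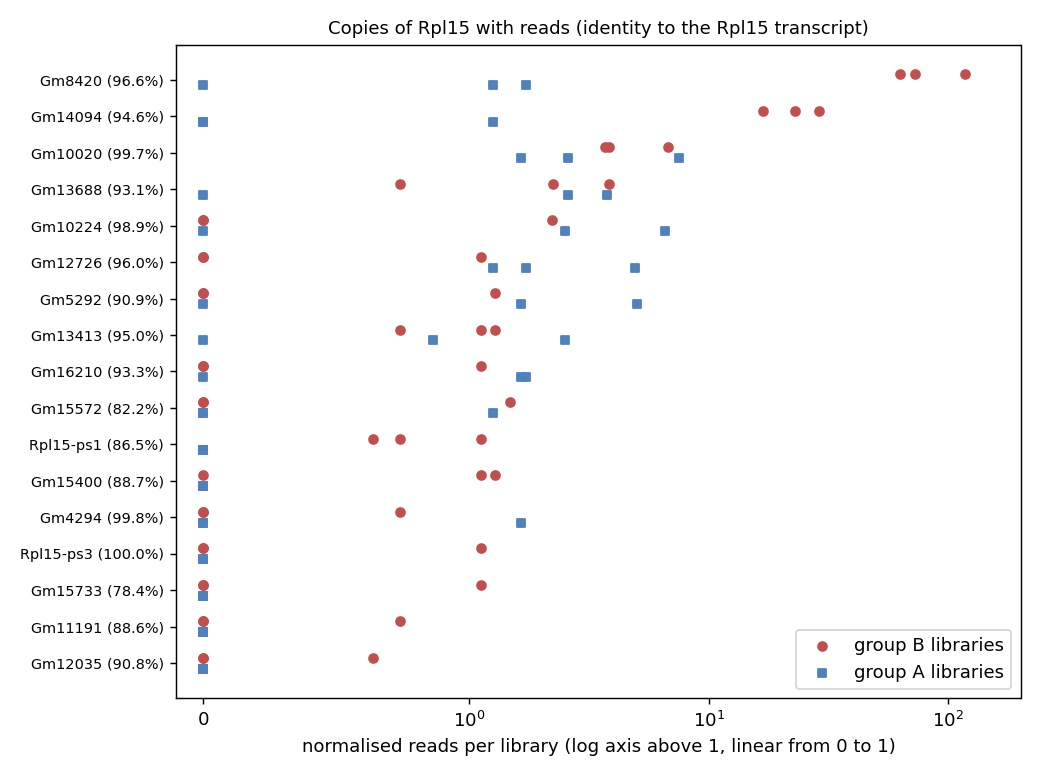
Normalised reads of each library (x axis, log scale above 1 and linear from 0 to 1) for Gm8420, Gm14094 and the 15 other copies of Rpl15 with reads, with the identity to Rpl15 beside each name. Round points are group B libraries and squares are group A libraries, and Gm8420 and Gm14094 are the copies in which every group B library lies above 16 and every group A library below 2 normalised reads.

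The treatment of reads that fit more than 1 gene is not stated anywhere in the labels or headers, so values of near-identical copies are uncertain. The longest annotated transcript of each of the 7 was searched for words of 50 bases found elsewhere. Of the 549 words in the Gm8420 transcript, 28.8% also occur in a transcript of another gene. For Gm14094 the share was 6.95% of 561 words. For 3632451O06Rik it was 1.42% of 8782 words, all shared with Gm8417. No word in the longest transcript of 9330158H04Rik, Gm16316, AI593442 or Gm15626 occurred in another GENCODE M21 gene. For 9330158H04Rik this covers 3125 words of 1 transcript, and its other exons were not searched.

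Gm15626 (ENSMUSG00000081822), the other processed pseudogene, is a single exon of 868 bases on chromosome 5, 83299585 to 83300452, minus strand. It lies inside an intron of Tecrl, a gene of heart muscle that encodes an enoyl-CoA reductase-like protein, and on the same strand. The nearest Tecrl exons are 398 and 4906 bases away. No transcript outside its locus aligned over 80% of its length. The closest, named here although outside the rule for copies, was Rps2-ps6, a pseudogene of ribosomal protein S2, at 73.7% identity over 65.1% of Gm15626. Normalised reads were 95.9, 105 and 56.1 in B1, B2 and B3, against 32.9, 36.4 and 16.5 in A1, A2 and A3. The lowest library of group B lies above the highest of group A. B3 and A3 were the lowest in their group. They are the shallowest library of each letter, and they also held the most reads of the adipocyte markers Cidec, Adipoq and Plin1, whose sum was 70.3, 62.8 and 235 normalised reads in B1, B2 and B3, against 9.52, 32.7 and 232 in A1, A2 and A3. All 4 adipocyte markers had an adjusted p, and none was called by the authors' deposited table, with a median log2 fold change of 0.08. The part of depth and of these markers in the values of Gm15626 was not tested. The difference of mean log2(normalised reads + 1) for Gm15626 was 1.58 with all libraries (group B minus group A), 1.85 without B3 and 1.23 without A3. The mean was 85.6 ± 26.0 in group B and 28.6 ± 10.6 in group A (SD, n = 3 each), a ratio of 2.99. The authors' deposited table gave 1.19 on the log2 scale with an adjusted p of 0.00193. Tecrl had a mean of 1820 normalised counts in that table, a log2 fold change of 0.26 (group B over group A) and no adjusted p. That mean lies above 16.0, the lowest with an adjusted p, and why Tecrl has none is not stated. Reads of Gm15626 and of unspliced Tecrl RNA cannot be told apart on this strand.

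9330158H04Rik (ENSMUSG00000073154) is a long intergenic noncoding RNA on chromosome 6, 36209620 to 36390191, minus strand, with 9 annotated transcripts. Its 5′ end meets that of Chrm2, which is read on the plus strand and encodes the M2 muscarinic acetylcholine receptor, the receptor through which the vagus nerve slows the heart. RefSeq places the start of 9330158H04Rik at base 36388234 and that of Chrm2 at 36388084, which is 150 bases apart, so the first bases of the 2 transcripts run over each other on opposite strands. In GENCODE M21 the gene spans share 2108 bases and the exons 142 bases. The windows around both starts are printed because the 2 transcripts, read in opposite directions, were both lower in group B. Each line runs from 250 bases before to 50 bases after the start (RefSeq, GRCm38.p6), chr6:36388185-36388484 on the minus strand and chr6:36387834-36388133 on the plus strand, and capitals mark a motif match.
9330158H04Rik: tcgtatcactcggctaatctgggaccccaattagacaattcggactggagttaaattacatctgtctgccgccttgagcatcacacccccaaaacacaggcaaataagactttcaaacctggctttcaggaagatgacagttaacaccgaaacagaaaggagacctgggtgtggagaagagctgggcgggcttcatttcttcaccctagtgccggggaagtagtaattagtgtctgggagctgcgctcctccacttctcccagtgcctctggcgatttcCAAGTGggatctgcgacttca
Chrm2: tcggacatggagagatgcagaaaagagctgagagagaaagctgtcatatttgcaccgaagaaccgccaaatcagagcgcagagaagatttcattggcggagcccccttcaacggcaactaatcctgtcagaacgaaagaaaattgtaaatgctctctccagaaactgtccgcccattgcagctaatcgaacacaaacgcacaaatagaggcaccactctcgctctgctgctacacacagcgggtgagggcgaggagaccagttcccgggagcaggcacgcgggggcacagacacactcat
For T-box factors the letters AGGTGT were searched on both strands, and 13.7% of 32817 RefSeq promoter windows of 300 bases held them. The letters AGATAA, recognised by factors of the GATA family, were held by 11.2% of these windows. CAAGTG, the letters for NK2 homeobox factors, stood in 13.6% of the windows. The window of 9330158H04Rik held 1 match, CAAGTG, 29 bases after the start, and that of Chrm2 held none. Of the 7 transcripts, 3 had a window in the RefSeq table, and those of 3632451O06Rik and AI593442 held none of the letters.

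Normalised reads of 9330158H04Rik were 48.6, 56.9 and 70.7 in B1, B2 and B3, against 224, 244 and 199 in A1, A2 and A3. Every library of group B was lower than every library of group A. The mean was 58.7 ± 11.2 in group B and 222 ± 22.3 in group A (SD, n = 3 each), which is 3.79-fold lower in group B. The authors' deposited table gave -1.77 on the log2 scale with an adjusted p of 5.60e-18, and for Chrm2 -1.33 with an adjusted p of 1.04e-12 at a mean of 3814 normalised counts. No label states whether the libraries kept strand. Without strand, reads from the shared 142 exon bases cannot be told apart between the 2 genes. Further exons of 9330158H04Rik, between bases 36388808 and 36390191, lie in the Chrm2 intron that runs from 36388751 to 36444121. Unspliced Chrm2 RNA covers these exons, and without strand it cannot be told apart from 9330158H04Rik there either. The next gene with any read on the Chrm2 side was Mir490, a microRNA gene 31.6 kb away with a mean of 0.336 normalised counts by the authors' deposited table.

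Gm16316 (ENSMUSG00000087129) is an antisense RNA of 2 exons on chromosome 2, 163685004 to 163692279, minus strand. It lies wholly within Pkig, which is read on the plus strand and encodes the gamma inhibitor of protein kinase A. No base of its exons overlaps a Pkig exon, since both exons lie in the Pkig intron that ends 1759 bases beyond the 5′ end of Gm16316. Its reads were 9, 2 and 3 in B1, B2 and B3, against 23, 19 and 26 in A1, A2 and A3. Normalised, these were 5.75, 1.48 and 3.37 in group B and 19.9, 23.9 and 42.8 in group A. The groups do not overlap, and A3 stands above the other libraries of its letter. The mean was 3.53 ± 2.14 in group B and 28.9 ± 12.3 in group A (SD, n = 3 each), which is 8.17-fold lower in group B. The ratio of summed reads was 0.138, with an exact 95% interval of 0.0718 to 0.248 for counting error only.

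The deposited log2 fold change of Gm16316 was -1.66 with an adjusted p of 7.13e-05 in the authors' table, and that of its host Pkig -1.02 with an adjusted p of 1.06e-13 at a mean of 1746 normalised counts. Both were lower in group B. Unspliced Pkig RNA that begins at the first Pkig exon covers the same bases, and without strand it cannot be told apart from Gm16316. RefSeq also places a Pkig start beyond the 5′ end of Gm16316, with its window at chr2:163693787-163694086 on the plus strand. RNA from that start does not cover Gm16316. The window held 1 match, CAAGTG, at position -124 from the start, and the other Pkig windows held none. Bmp10, the atrial marker whose reads could be recovered, had 2.56, 17.0 and 1.12 normalised reads in B1, B2 and B3, against 0, 0 and 72.5 in A1, A2 and A3. A3 is thus the highest library for Bmp10 and for Gm16316. Within group B the order was not shared, since B2 was the highest library for Bmp10 and the lowest for Gm16316. Bmp10 is 1 of 7 atrial markers, of which 5 had an adjusted p, none was called and the median log2 fold change of those 5 was -0.13 by the authors' deposited table. The libraries of the other atrial markers could not be recovered. Without A3 the difference of mean log2(normalised reads + 1) for Gm16316 was -2.45 (group B minus group A), against -2.76 with all libraries.

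3632451O06Rik (ENSMUSG00000036242) is protein coding and carries the name Armh4, armadillo-like helical domain containing 4, in GENCODE M21. It lies on chromosome 14, 49681560 to 49783383, minus strand, with 3 annotated transcripts. Normalised reads were 70.9, 63.5 and 96.5 in B1, B2 and B3, against 403, 419.6 and 389 in A1, A2 and A3. The groups are far apart, and the libraries of group A lie within 1.08-fold of each other. The mean was 77.0 ± 17.3 in group B and 404 ± 15.4 in group A (SD, n = 3 each), which is 5.24-fold lower in group B. The deposited log2 fold change was -2.23 with an adjusted p of 6.43e-33 in the authors' table. It had rank 5 among the lowest values of all genes.

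The values per library of 3632451O06Rik and 9330158H04Rik are less certain than those of the other 5. At their means of 240.4 and 140.6 normalised counts, 296 and 28 sets of whole reads fitted the printed mean. The set given here was chosen with the help of the deposited fold change and of a likelihood that favours a small spread within a letter, by a rule settled after the data had been seen. The means, SDs and the absence of overlap of these 2 transcripts are therefore no independent measurement of the difference or of its spread. Under 2 simpler rules tried before, 9330158H04Rik kept the same single set, while 3632451O06Rik kept 2. The second set had 49, 58 and 59 reads in group B against 683, 199 and 280 in group A, or 31.3, 42.9 and 66.2 normalised reads against 591, 250.0 and 461.

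AI593442 (ENSMUSG00000078307) is annotated as protein coding and has no name that states a function. It lies on chromosome 9, 52673044 to 52679429, minus strand, in 3 exon blocks. Normalised reads were 217, 143 and 108 in B1, B2 and B3, against 41.5, 26.4 and 29.7 in A1, A2 and A3. The lowest library of group B is 108 and the highest of group A 41.5, so they do not overlap, and B1 is 2.02 times B3. The mean was 156 ± 56.0 in group B and 32.5 ± 7.97 in group A (SD, n = 3 each), a ratio of 4.79. The authors' deposited table gave 1.75 on the log2 scale with an adjusted p of 5.63e-08.

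**Figure D3:**
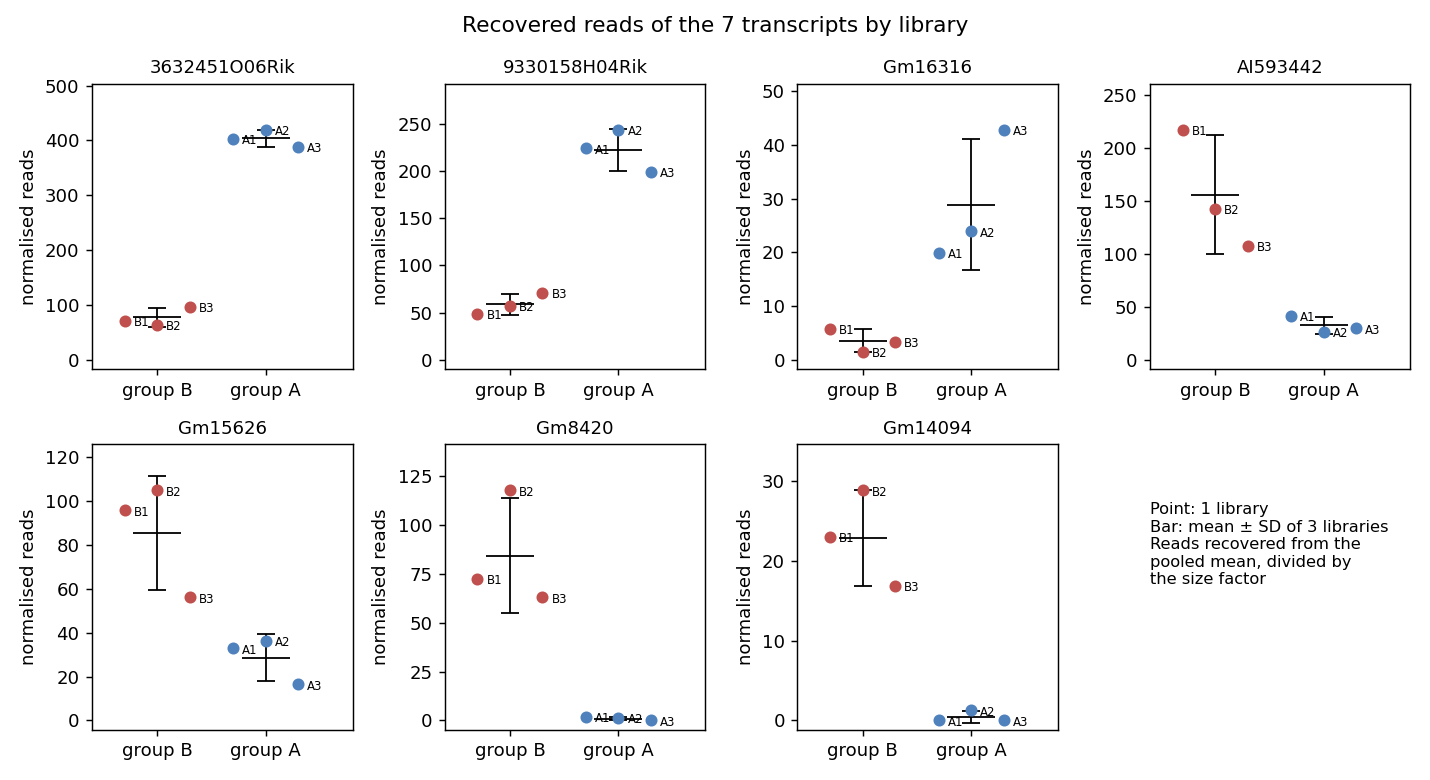
Normalised reads (y axis, linear) of the 7 transcripts in each library, group B left of group A. Points are libraries, the horizontal bar is the mean and the whiskers are 1 SD of 3 libraries. The 3 libraries of group B lie on 1 side of the 3 of group A in each panel, with Gm8420 between 62.9 and 117 in group B and between 0 and 1.73 in group A. The reads of 3632451O06Rik and 9330158H04Rik were chosen with the help of the deposited fold change.

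In all 7 transcripts the libraries of the 2 letters did not overlap. Among 4126 recovered genes with a mean of at least 10 and under 100, 19.1% did not overlap either, 13.3% being higher and 5.87% lower in group B. 3632451O06Rik and 9330158H04Rik, with means of 240.4 and 140.6, lie outside this range and cannot be set beside that share. Their reads were chosen with the deposited fold change and for a small spread within a letter, so their lack of overlap comes from that rule. Again the choice of the transcripts by these values fixes their count. A limma-voom fit of the recovered reads called 19 of 3338 genes (0.569%) with a mean of at least 16 and under 100 at an adjusted p under 0.05. This fit uses the same contrast that chose the transcripts, so its count stands as background and its calls are not read for them.

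Per kilobase of exon, the order of levels differed between the groups. Exon length here counts each base that lies in an exon of any annotated transcript. For 9330158H04Rik this length is 9.18 kb over 9 transcripts, while its longest transcript has 3174 bases. For 3632451O06Rik it is 9.27 kb, and the longest transcript has 8831 bases. The place of 9330158H04Rik therefore rests on this choice of length, and an order by longest transcript was not computed. In group B it ran from Gm8420 at 141 ± 48.8 normalised reads per kb through Gm15626 (98.7 ± 29.9), Gm14094 (37.5 ± 9.82), AI593442 (26.8 ± 9.61), 3632451O06Rik (8.31 ± 1.87) and 9330158H04Rik (6.40 ± 1.22) to Gm16316 (1.04 ± 0.63). Of these neighbours in the order, Gm8420 and Gm15626 overlapped in their libraries, as did Gm14094 and AI593442, and 3632451O06Rik and 9330158H04Rik. In group A, 3632451O06Rik was first by this length at 43.6 ± 1.67 normalised reads per kb. The 2 Rpl15 copies were last at 1.66 ± 1.50 and 0.687 ± 1.19. Between 3632451O06Rik and these copies stood Gm15626 (32.9 ± 12.3), 9330158H04Rik (24.2 ± 2.42), Gm16316 (8.51 ± 3.61) and AI593442 (5.58 ± 1.37). There the overlapping neighbours were 3632451O06Rik and Gm15626, Gm15626 and 9330158H04Rik, Gm16316 and AI593442, and Gm8420 and Gm14094. Over both groups, the deposited means per kb placed Gm8420 at the 48.5th and Gm16316 at the 2.87th percentile of genes with an adjusted p.

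Most genes around the 7 transcripts had no adjusted p and so could not be called. Within 100 kb of a transcript the table lists 13 other genes, of which 11 had reads and 5 an adjusted p. Chrm2 and Pkig, which overlap a transcript, were the 2 called, both lower in group B (40% of 5, against 3.98% of all genes with an adjusted p). Within 500 kb, 4 of 25 genes with an adjusted p were called (16%). The further 2 were Wisp2, a matricellular protein of the CCN family, 129 kb from Gm16316, and Nabp1, a single-strand DNA binding protein, 462 kb from Gm8420. Their log2 fold changes were 1.16 with an adjusted p of 2.41e-06 for Wisp2 and 0.74 with one of 0.0176 for Nabp1 by the authors' deposited table. Wisp2 was thus higher in group B, while Gm16316 and Pkig were lower.

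**Figure D4:**
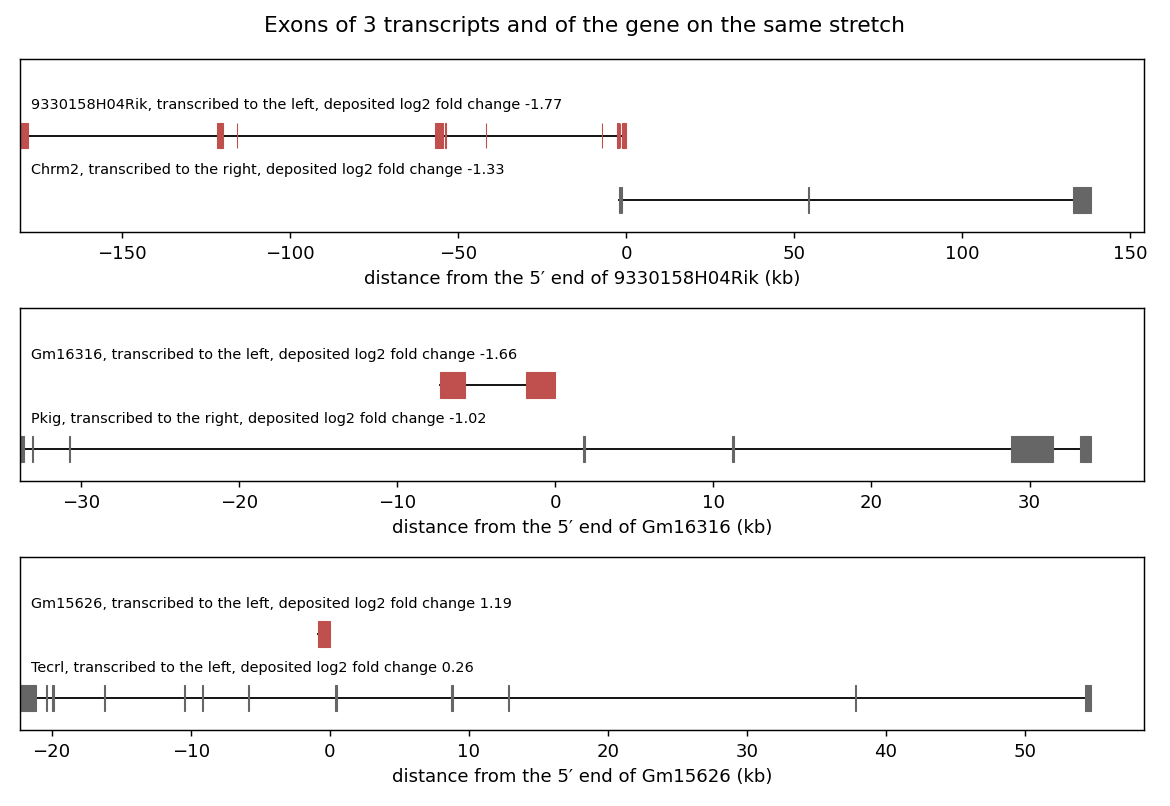
Exon maps of 9330158H04Rik with Chrm2, Gm16316 with Pkig and Gm15626 with Tecrl, drawn to scale against the distance from the 5′ end of the transcript (x axis, kb). Boxes are exons and lines are introns. 9330158H04Rik and Chrm2 run away from a shared 5′ region, Gm16316 lies in a Pkig intron on the other strand, and Gm15626 lies in a Tecrl intron on the same strand.

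None of the genes named next, which lie nearest to the remaining transcripts or to Gm16316 outside Pkig, was called, and most of them had no adjusted p. 3632451O06Rik spans Gm16082, a pseudogene with a mean of 0.23 normalised counts, and its next gene with any read was Slc35f4, a member of a nucleotide sugar transporter family, 156 kb away at a mean of 0.144 by the authors' deposited table. For AI593442 the nearest gene with reads was Ddx10, an RNA helicase 419 kb away, with a log2 fold change of -0.16 and an adjusted p of 0.690 by the authors' deposited table. On the side of higher coordinates, the nearest gene with reads to Gm8420 was Stat4, a signalling transcription factor 45.9 kb away, with a log2 fold change of 0.02 and no adjusted p by the authors' deposited table. Gm14094 had no gene within 100 kb in the table. Its nearest genes with reads were Fermt1, an integrin adaptor of epithelium, 254 kb away at a mean of 0.123, and Bmp2, a growth factor, 352 kb away with a log2 fold change of -0.01 and an adjusted p of 0.993 by the authors' deposited table. Next to Gm16316, outside Pkig, the nearest genes with reads were 0610039K10Rik, 39.2 kb away at a mean of 0.213, and Ada, adenosine deaminase, 34.3 kb away with a mean of 12.1 and a log2 fold change of 0.27 there.

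**Figure D5:**
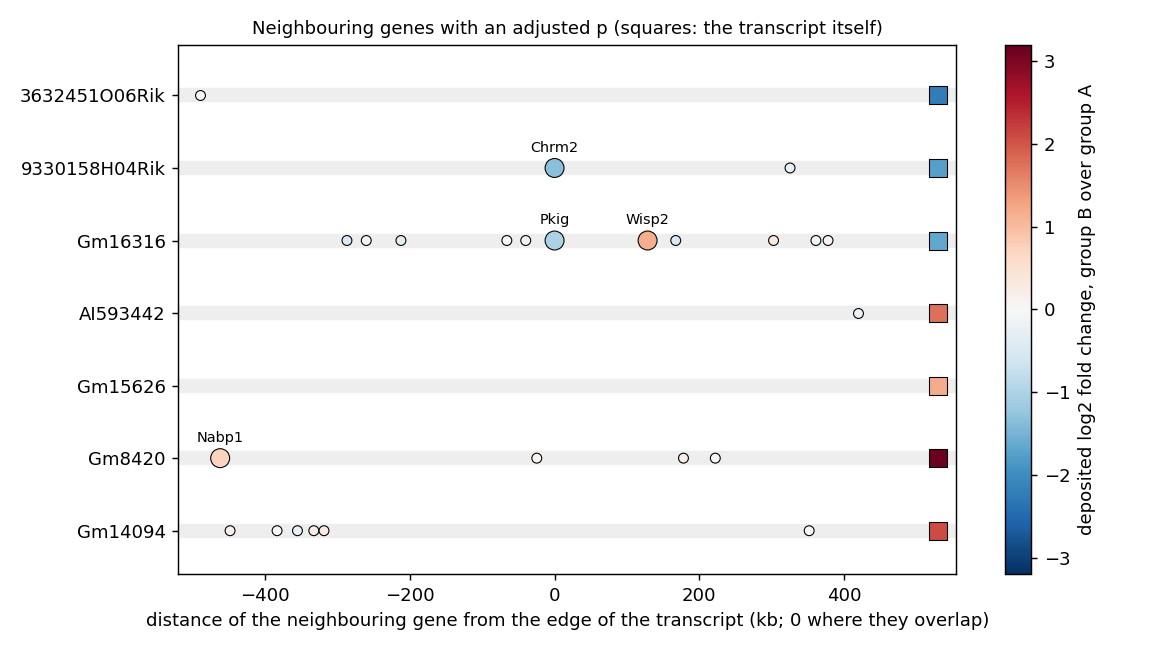
Genes with an adjusted p within 500 kb of each transcript, placed by distance from its edge (x axis, kb) and coloured by the deposited log2 fold change of group B over group A. Large points have an adjusted p under 0.05, and the square at the right of each row is the transcript itself. Chrm2 and Pkig, at distance 0, share the colour side of the transcript they overlap, and Wisp2 does not share that of Gm16316.

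The genes whose pattern over the 6 libraries was most like each transcript were looked up among 3338 recovered genes with a mean of at least 16 and under 100, by Pearson's r of log2(normalised reads + 1). With 6 points and large differences between letters, such values are high for many genes and are given as a description. Nearest to 3632451O06Rik were Tbc1d10c, a GTPase-activating protein (r = 0.996), Gm15542 (0.995) and Gm12295 (0.986). 9330158H04Rik had Gm15542 (r = 0.994), Tbc1d10c (0.989) and Gm17473 (0.983). Bmyc, a relative of Myc, was nearest to Gm16316 (r = 0.993), before the long noncoding RNA Rmst (0.988) and Klhl34 (0.984).

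Among the higher transcripts, AI593442 was most like Naip2 (r = 0.993) and Aim2 (0.990), which are sensors of microbial products and of cytosolic DNA, and Creb5 (0.990), a transcription factor. Gm15626 was most like Etv1 (r = 0.996), an ETS transcription factor, Oas1b (0.992), an interferon-induced gene, and Ccdc176 (0.989). For Gm8420 the nearest were Wdr76 (r = 0.994), Atp5l (0.992), a subunit of ATP synthase, and Cd84 (0.985), a receptor of leukocytes and platelets. For Gm14094 they were Zfp960 (r = 0.988), Wdr76 (0.986) and Btla (0.981), a lymphocyte receptor. Between the 2 Rpl15 copies r was 0.979 over the 6 libraries. The values of 3632451O06Rik and 9330158H04Rik in this comparison rest on the chosen sets of reads.

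Other gene models with provisional names were read at low levels. The table holds 16219 such names, of which 57.8% had no reads, against 38.8% of all genes. Of 1390 with an adjusted p, 71 passed (5.11%), with 41 of them higher in group B and 30 lower. Besides the 6 described above, the 65 called models had log2 fold changes between -1.51 and 1.58 by the authors' deposited table, so each was smaller in size than those of 3632451O06Rik, 9330158H04Rik, Gm16316, AI593442, Gm14094 and Gm8420. The median log2 fold change was 0.00 over the 1390 names and 0.00 over all 13230 genes with an adjusted p. Of 546 processed pseudogenes with an adjusted p, 13 passed (2.38%), with 4 of them higher in group B and 9 lower.

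Cell type markers moved with the letters in part. Of 9 platelet and megakaryocyte markers, all had reads, 6 had an adjusted p, and these 6 were higher in group B by the authors' deposited table. They were Pf4, Gp9, Clec1b, Itga2b, Tubb1 and Ppbp, with log2 fold changes from 0.51 to 1.65. The summed level of the 7 whose reads were recovered was 561, 236 and 128 normalised reads in B1, B2 and B3, against 47.6, 42.7 and 110 in A1, A2 and A3. AI593442 was likewise highest in B1 and lowest in B3 within group B, while Gm8420, Gm14094 and Gm15626 were highest in B2. Within group A the order was not shared, since the platelet sum was highest in A3 and AI593442 in A1. Without B1 the difference of mean log2(normalised reads + 1) of AI593442 was 1.92 (group B minus group A), against 2.19 with all libraries. The macrophage markers Mrc1 (0.46) and F13a1 (0.51) were called higher among 7 tested. Of the 3 nerve and Schwann cell markers with an adjusted p, Dbh and Uchl1 were called lower by the authors' deposited table. The 6 of that list with recovered reads summed to 107, 91.6 and 89.8 normalised reads in group B against 155, 146 and 175 in group A. Of 9 ventricular cardiomyocyte markers, which had means from 67577 to 579178 normalised counts, Actc1 was called, lower in group B. The part of these cell types in the differences of the 7 transcripts was not tested.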

How the data were processed

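RNA of cardiac ventricles was sequenced, and 1 table of the authors' comparison of group B with group A was used. The submitters' processing notes name Bowtie2 2.0, DESeq2 and build mm9, with no role or order. The counting of reads is not stated there. The deposited signal, per the file headers, is a mean count over all libraries after division by size factors. The deposited log2 fold change is group B over group A and is shrunken towards 0. The adjusted p-value is the authors' own as deposited, and a gene was called under 0.05. Coordinates in the table were identical to GENCODE M21 (GRCm38) for 69.6% of 36602 matched genes, so they are given as GRCm38.

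Genes with 1 read share 6 values of the mean, 1 per library, and the sign of their fold change gives the letter. Whole reads were solved from the 15 printed digits of the mean, and the solver was tested on simulated data. At a mean of 100 or more several sets can fit. For the 2 transcripts there, sets were kept if their ratio of group means lay within 0.953 to 1.37 of that predicted from the deposited fold change, calibrated on 104 called genes. The set with the highest negative binomial likelihood was taken if it led by at least 3 log10 units (leads of 6.46 and 30.3). This rule was settled after 2 simpler ones, a fixed and a calibrated window with a limit of 2.5-fold within a letter, had been seen to leave 2 sets for 3632451O06Rik.

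Differences are means of log2(normalised reads + 1). limma 3.58.1 (R 4.3.3) voom was fitted to recovered reads with size factors as library sizes and Benjamini-Hochberg adjustment. Counts per library in the planned design were replaced by these recovered reads, since the file holds no library column. The longest transcript of each of the 7 was compared with BLAST 2.17.0 (word size 11, expected value 1e-10), and intervals are exact binomial at 95%. Named genes were the 7 transcripts, genes overlapping them, the nearest gene with reads on each side, genes called within 500 kb, copies aligned over 80% of a transcript, the 3 genes of highest correlation, and called markers. One gene that this rule names is not reported here. The transcripts, lists and rules were chosen with earlier results of these data known.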

Additional observations from a re-analysis of the deposited data

How the results depend on the processing

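No paired analysis was possible because the labels give 1 sample per group and the recovered libraries carry no replicate numbers. The differences of the 7 transcripts kept their sign under all 64 alternatives. This sign is no support, since the transcripts were chosen for their differences. Their libraries do not overlap, so leaving out a library or changing the pseudocount could not reverse it. For 3632451O06Rik and 9330158H04Rik the reads were themselves chosen with the deposited fold change. Of the 64 alternatives, 60 moved by less than 1 SD between libraries. The exceptions were Gm8420 at 6.40 and Gm14094 at 5.77 as log2 ratios of group means (5.49 and 4.16 with a pseudocount of 1), and Gm14094 at 4.91 with a pseudocount of 0.5, where the group A reads are 3 and 1 in all. The fourth, added after seeing the data, was the second set of reads of 3632451O06Rik at -3.16 against -2.40. Leaving out 1 library gave -2.57 to -2.27 for 3632451O06Rik, -2.06 to -1.79 for 9330158H04Rik, -3.11 to -2.38 for Gm16316, 1.92 to 2.43 for AI593442, 1.23 to 1.85 for Gm15626, 5.05 to 5.77 for Gm8420 and 3.96 to 4.55 for Gm14094. At an adjusted p under 0.01 the table gave 294 calls against 527, with 6 of the 7 transcripts still called. Called neighbours were 4 within 500 kb against 2 within 100 kb, a wider window. limma-voom called 223 genes with no lower limit on the mean against 19, 164 higher and 59 lower, and between 1 (without A1 or without A2) and 126 (without B3) when 1 library was left out. The cause was not tested. Depth limits the transcripts with few reads most, Gm16316 with 14 reads in group B and Gm14094 with 1 in group A, while near-identical copies limit Gm8420 and Gm14094 and the unknown strand limits 9330158H04Rik and Gm16316.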
